A study of Homo sapiens with 2 samples.

Results

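METTL1 with WDR4, METTL4, METTL5 with TRMT112, METTL9, METTL15, METTL17, METTL18 and METTL25 are human methyltransferase-like (METTL) enzymes and 2 of their protein partners. These 10 genes were chosen by name, not by their values, out of 59026 genes matched in the deposited tables, and every listed transcript of each was used, 101 in all. The measurements came from rRNA-depleted total RNA of HEK293 Flp-In T-Rex cells, a derivative of the human embryonic kidney line HEK293 in which a transgene can be placed at 1 prepared site under tetracycline control. The cells were kept in high glucose DMEM with foetal calf serum, and the labels name no treatment or transgene for them. There was 1 group of 2 libraries, replicate 1 with 25158962 and replicate 2 with 27143860 estimated counts. No condition was compared, and because nothing says that the libraries came from separate cultures, the spread between them may be technical.

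METTL proteins share a fold that transfers a methyl group from S-adenosylmethionine, but they modify different substrates, among them tRNA, rRNA, spliceosomal RNA and histidine residues of proteins. Several work as a pair in which only 1 subunit is catalytic: WDR4 holds the tRNA for METTL1, and TRMT112 stabilises METTL5 and several other methyltransferases. METTL15 and METTL17 act in mitochondria on the small subunit of the mitochondrial ribosome.

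The question put to the tables was how much RNA of each gene the cells held and which of its transcripts carried the counts. An estimated count is the number of reads that RSEM assigned to a transcript after dividing reads that match several. A normalised count is that number divided by 1 size factor per library. For levels of different genes, estimated counts were divided by transcript length and scaled to 1000000 per library, and this quantity is called the level per length. Of all counts, 0.0346% in replicate 1 and 0.0325% in replicate 2 fell on the 10 genes. Of their 101 transcripts, 80 were above 0 in at least 1 library, 18 of these in only 1, and 21 were listed at 0 in both.

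The cell line label was checked on marker genes. Of the genes typical of HEK293, VIM held 15885 ± 738, KRT8 1977 ± 128, NEFL 1858, KRT18 1473 ± 96.0, INA 375 ± 27.5, PAX2 42.0 ± 11.5 and NEFM 16.6 ± 2.96 normalised counts (SD, n = 2). PTPRC of leukocytes and ALB of hepatocytes were listed at 0 in both libraries. HBB, a globin gene, held 180 ± 2.02 and the collagen gene COL1A1 223 ± 95.8 normalised counts, and their part in the values given here was not tested.

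TRMT112 had the highest level per length and METTL25 the lowest, when all transcripts were counted. TRMT112 reached 110.9 in replicate 1 and 109.3 in replicate 2, which is 110.1 ± 1.11 (SD, n = 2). It was higher than 97.8% of the 26370 genes that had 1 or more normalised counts in each library. METTL9 followed with 77.0 and 68.8, then METTL17 with 40.1 and 37.2 and METTL5 with 38.3 and 29.9. WDR4 lay in between, at 9.67 and 12.5. The others were low: METTL15 at 7.13 and 6.42, METTL4 at 8.34 and 4.99, METTL1 at 4.87 and 5.39, METTL18 at 4.07 and 2.99, and METTL25 at 2.86 and 1.34, all as level per length in replicates 1 and 2. METTL25 was still above 51.2% of those genes.

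A difference was called larger than the spread when the order was shared by the libraries and the means lay farther apart than the sum of their SDs. By this rule 41 of the 45 pairs of genes were told apart. The exceptions were METTL17 over METTL5 (1.13-fold), METTL15 over METTL4 (1.02-fold), METTL4 over METTL1 (1.3-fold) and METTL18 over METTL25 (1.68-fold), given as ratios of mean levels per length. In the second and the third of these pairs the order differed between the libraries. When lengths were not divided out, or when only protein-coding transcripts were counted, METTL9 was above TRMT112 in a difference larger than the spread. For protein-coding transcripts the mean level per length was 61.3 ± 18.5 for METTL9, 22.5 ± 4.25 for METTL5 and 20.9 ± 12.7 for TRMT112 (SD, n = 2). With all transcripts per length the levels fell into TRMT112, METTL9, METTL17 with METTL5, WDR4, and a low group of 5 genes within which only some pairs were separated. A list of 15 other METTL genes, listed for comparison, ran from 0.0605 (METTL24) to 78.8 (METTL26) in mean level per length. TRMT112 was above all 15 of them, METTL9 above 14, METTL17 above 13, METTL5 above 12, and each of the remaining 6 genes above 2.

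**Figure D1:**
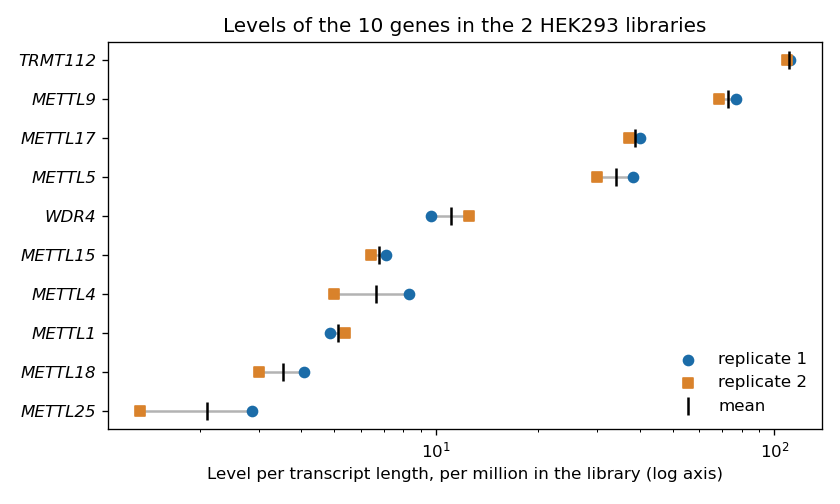
Level per transcript length, scaled to 1000000 in each library (log axis), of the 10 genes, with a circle for replicate 1, a square for replicate 2 and a tick for the mean. The points of TRMT112 lie nearly on top of each other, at 110.9 and 109.3, whereas those of METTL25, at 2.86 and 1.34, lie farthest apart on this axis.

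Between the libraries most of the genes moved little. Normalised counts were lower in replicate 2 for 9 of the 10 genes, against 55.2% of all genes with a mean of at least 10. Their median log2 difference, replicate 2 minus replicate 1, was -0.21, beside -0.06 over all these genes. Only METTL25, with 117 and 54.1 normalised counts, differed over 2-fold (2.17-fold), which 5.76% of all genes did. It was also the only gene of the 10 over 1.5-fold, against 17.4% of all genes. Counting protein-coding transcripts only, METTL25 was 1.42-fold apart (21.2 and 15.0 normalised counts) and TRMT112 became the 1 gene over 2-fold (201 and 467, 2.32-fold), against 5.01% of genes counted so. With all transcripts counted, WDR4 alone had more normalised counts in replicate 2.

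METTL1 and WDR4 form the enzyme that places 7-methylguanosine in the variable loop of a set of tRNAs, with METTL1 (chr12:57768471-57772119, minus strand, GRCh38) as the catalytic subunit and WDR4 (chr21:42843094-42879568, minus strand) as its WD-repeat partner. METTL1 held 128 and 119 normalised counts and WDR4 455 and 608 in replicates 1 and 2. In level per length METTL1 was instead the higher in replicate 2, at 5.39 against 4.87. Both libraries had more WDR4 than METTL1. Per length, WDR4 was 1.99-fold above METTL1 in replicate 1 and 2.32-fold in replicate 2, a log2 ratio of 1.10 ± 0.16 (SD, n = 2) and larger than the spread. Without division by length the log2 ratio was 2.09 and with protein-coding transcripts only 0.53, so its size, though not its direction, depended on what was counted.

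In both genes much of the count lay on transcripts other than the one that encodes the reference protein, taken as the coding sequence of the MANE Select transcript. METTL1-202, the reference form of 276 codons, held 25.9 and 14.2 normalised counts, which was 20.2% and 11.9% of METTL1. METTL1-201, whose coding sequence has 155 codons, held 59.0 and 39.1 normalised counts, or 46.1% and 32.7%, and led in both libraries. METTL1-201 leaves out exon 3 of the reference form, so that exon 2 joins exon 4. METTL1-208, marked for nonsense-mediated decay, joins exon 2 to exon 3 as the reference form does. It held 30.9 and 14.8 normalised counts, or 24.2% and 12.4% of METTL1, so the junction to exon 3 does not stand for the reference form alone. The 2 junctions are shown because they separate the short from the reference form, as 15 bases on each side in the GENCODE release 44 transcripts (GRCh38, 5′ to 3′), the source of every sequence here, with the capitals marking the 2 bases on either side of the junction:
METTL1 exon 2 to exon 3: atggtggcctgttAGTGgaactgtcaccgc
METTL1 exon 2 to exon 4: atggtggcctgttAGCTgacaaagatgttc
The second of these junctions took 50.9% (exact 95% interval 41.2 to 60.6) in replicate 1 and 57.3% (45.4 to 69.0) in replicate 2 of the counts on transcripts with either junction. These are counts RSEM assigned to transcripts that contain a junction, not reads across it, and all intervals cover counting error only. Unless stated, junction and intron shares were of counts not divided by transcript length, so longer transcripts weigh more in them. METTL1-203 and METTL1-207, both incomplete models, were at 0 in replicate 1 (2.48% each if 3 counts are taken as the limit of a count of 0, the floor used throughout) and held 26.2% and 10.8% in replicate 2. The 3-prime exon of METTL1 shares 107 nt with CYP27B1 on the same strand, a gene with 30.1 ± 0.689 normalised counts. EEF1AKMT3, on the opposite strand with 251 ± 0.612 normalised counts, overlaps 114 nt of METTL1-208.

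WDR4 was led in both libraries by WDR4-205, a transcript for which no coding sequence is defined, with 228 and 257 normalised counts or 50.2% and 42.3% of the gene. Transcripts with the 412-codon reference coding sequence, WDR4-201 and WDR4-202, held 37.7% in replicate 1 and 33.6% in replicate 2 together. WDR4-205 and WDR4-207 end an exon 52 nt earlier than WDR4-202 does at exon 3, as these junctions show (capitals as above):
WDR4 exon 3, full end: atgtctgagtgtcAGGAccgtggcaaggag
WDR4 exon 3, early end: ctttaaccgatgaCAGAccgtggcaaggag
The early end took 56.7% (51.9 to 61.5) in replicate 1 and 61.1% (57.3 to 64.9) in replicate 2. These intervals overlap, and whether the shares of the 2 libraries differ was not tested. WDR4-207 itself was 3.92-fold apart, with 29.3 and 115 normalised counts.

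TRMT112 (chr11:64316460-64317559, minus strand) encodes a small zinc-binding activator that forms a pair with each of several methyltransferases, METTL5 being the one that places N6-methyladenosine in the rRNA of the small ribosomal subunit. It held 2042 and 1940 normalised counts, or 1991 ± 71.9 (SD, n = 2). Yet 90.1% (88.7 to 91.4) of its counts in replicate 1 and 76.0% (74.1 to 77.8) in replicate 2 were assigned to transcripts annotated as retaining an intron. The mean of 83.0% ± 10.0 was above that of 98.8% of the 7900 protein-coding genes that have a model of this class and average 10 or more normalised counts, whose median was 5.48%. Over 50% in both libraries was found for 1 of the 8 genes here with such a model, TRMT112, and for 3.82% of all genes compared. With values per length the shares were 89.3% and 72.7%.

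The gene has 3 short introns, counted from the 5-prime end, of 83 nt (chr11:64317366-64317448), 116 nt (chr11:64317148-64317263) and 89 nt. The 5-prime splice sites of introns 1 and 2 are shown as examples of the spliced and the retained form. In the spliced form the capitals are the 2 bases on either side of the junction, and in the retained form they are the first 2 bases of the intron:
TRMT112 intron 1 spliced: cccctgcgcctccAGGCcaccgaggtccgt
TRMT112 intron 1 retained: cccctgcgcctccagGTacccgccggcggc
TRMT112 intron 2 spliced: gaggcggccgataACTTgcgtctgatccag
TRMT112 intron 2 retained: gaggcggccgataacGTgaggatccttacc
Each of the 3 introns had transcripts that kept it in both libraries. Intron 1 was kept in 44.4% (41.7 to 47.0) and 29.1% (27.0 to 31.2) of the counts on transcripts that cover it and are spliced or unspliced at these sites. For intron 2 the values were 28.9% (26.8 to 31.0) and 16.5% (14.7 to 18.4), and for intron 3 31.7% (29.6 to 33.8) and 39.7% (37.6 to 41.9). Introns 1 and 2 were lower and intron 3 higher in replicate 2, and the intervals of the 2 libraries did not overlap for any of the 3, so the libraries differed by more than counting error.

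No single retained form accounted for this. TRMT112-203, which keeps intron 1, held 645 and 455 normalised counts. TRMT112-205, with intron 3, held 630 and 734, and TRMT112-204, with intron 2, held 548 and 249. TRMT112-203 led in replicate 1 and TRMT112-205 in replicate 2. The fully spliced forms held less. TRMT112-206, the reference form of 125 codons, had 54.0 and 34.7 normalised counts, which was 2.65% and 1.79% of the gene. TRMT112-201, of 120 codons, had 147 and 432, or 7.22% and 22.3%, a 2.93-fold difference between the libraries. It differs from the reference by a start of exon 3 that lies 15 nt further in (capitals around the junction):
TRMT112 exon 2 to late exon 3: gaggcggccgataACGTgccgaaagggccg
Beside the junction of the spliced intron 2 above, this one took 9.86% (8.34 to 11.5) in replicate 1 and 25.5% (23.6 to 27.6) in replicate 2. ESRRA, a nuclear receptor gene on the opposite strand, overlaps 284 of the 1100 exonic nt of TRMT112 and held 677 ± 119 normalised counts. The overlap covers 34.5% of TRMT112-203 and 34.98% of TRMT112-206, but at most 8.94% of the other 4 transcripts. Whether the counting used strand is not given in the sources used here. Reads from shared stretches therefore cannot be told apart, here and for the other opposite-strand overlaps.

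**Figure D2:**
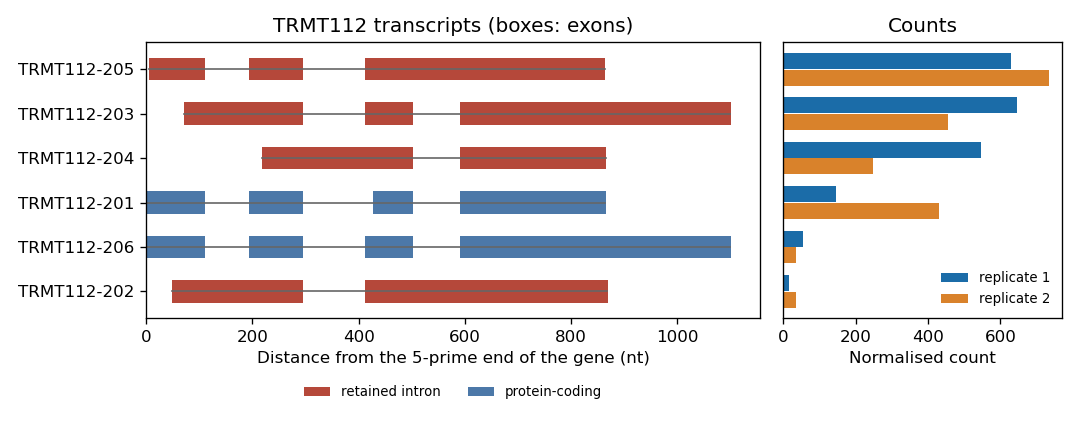
Left, the exons (boxes) of the 6 TRMT112 transcripts by distance in nt from the 5-prime end of the gene, red for retained-intron and blue for protein-coding models. Right, bars of their normalised counts in replicates 1 and 2, in which TRMT112-205, TRMT112-203 and TRMT112-204 together hold most of the counts and TRMT112-206 holds 54.0 and 34.7.

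The methyltransferases that TRMT112 is known to activate were taken as a list of 7. BUD23, which methylates the rRNA of the small ribosomal subunit, had a level per length of 35.4 and 35.2. METTL5 was next by the mean, though above BUD23 in replicate 1, followed by the tRNA enzymes TRMT11 at 34.2 and 25.7 and THUMPD3 at 32.7 and 22.6. THUMPD2 (10.8 and 8.41), N6AMT1, which modifies a translation release factor (8.49 and 7.5), and ALKBH8, which acts on the wobble base of tRNAs (3.13 and 3.04), were lower. TRMT112 was above each of the 7 in both libraries, yet below their sum, which was 163.0 and 132.3 in level per length. The log2 ratio of TRMT112 to that sum was -0.56 and -0.28, or -0.42 ± 0.20 (SD, n = 2), and to METTL5 alone it was 1.53 and 1.87, or 1.70 ± 0.24 (SD, n = 2). Both were larger than the spread. Counting protein-coding transcripts only, TRMT112 stood at 11.9 and 29.9 and METTL5 at 25.5 and 19.5, so that TRMT112 was lower in replicate 1 and higher in replicate 2. The log2 ratio to METTL5 was then -0.24 ± 1.21, and that to the sum -2.62 ± 1.13 (SD, n = 2).

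**Figure D3:**
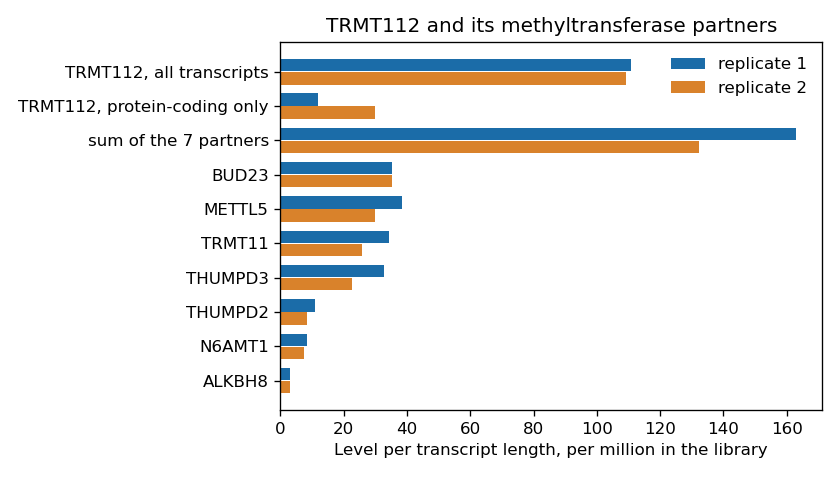
Bars of the level per transcript length, scaled to 1000000, in replicates 1 and 2 for TRMT112, for its protein-coding transcripts only, for the sum of its 7 methyltransferase partners and for each partner. TRMT112 at 110.9 and 109.3 exceeds every single partner and lies below their sum of 163.0 and 132.3.

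METTL5 (chr2:169810081-169824931, minus strand) held 779 and 561 normalised counts. Transcripts with its reference coding sequence of 209 codons, METTL5-203, METTL5-206 and METTL5-201, held 63.7% (60.1 to 67.2) in replicate 1 but 41.9% (37.9 to 45.9) in replicate 2. METTL5-203 led in replicate 1 and held 323 and 104.5 normalised counts, while METTL5-202 held 38.4 and 133 and led in replicate 2. METTL5-202 has a coding sequence of 164 codons and leaves out exons 5 and 6 of METTL5-203 (capitals as above):
METTL5 exon 4 to exon 5: ccaaaaataataaAGGGacagatatggctt
METTL5 exon 4 to exon 7: ccaaaaataataaAGAActtcgatatgacc
The second junction took 6.40% (4.49 to 8.68) in replicate 1 and 32.0% (27.7 to 36.5) in replicate 2. Here the libraries differed by far more than counting error. METTL5-211, a model marked for nonsense-mediated decay that leaves out exon 4, was more even, at 17.3% and 19.2% of the gene. The 3-prime end of METTL5 overlaps SSB, which encodes the La protein, on the opposite strand over 572 nt of exon, and SSB held 1968 ± 525 normalised counts.

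METTL4 (chr18:2537525-2571509, minus strand) encodes an N6-adenosine methyltransferase of the U2 spliceosomal RNA. It held 479 and 322 normalised counts, and METTL4-203, its reference form of 472 codons, led in both libraries with 60.3% and 61.7%. Per length, METTL4-203 held 33.9% and 39.7%, and in replicate 1 the short incomplete model METTL4-206 was above it at 36.2%. METTL4-201, of 419 codons, was at 0 in replicate 1 (under a floor of 0.662%) and held 14.3% in replicate 2. METTL4-202, a retained-intron model, held 13.9% and 5.50%.

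METTL9 and METTL18 both methylate histidine residues of proteins. METTL9 (chr16:21597218-21657471, plus strand) had the highest counts of the 10 genes before division by length, 3168 and 2721 normalised counts. METTL9-202, of 317 codons, led with 84.6% and 80.5%. The reference form METTL9-201, of 318 codons, was at 0 in replicate 1 (under a floor of 0.1%) and held 1.96% (1.47 to 2.51) in replicate 2. The pair differs at the start of exon 5, where an acceptor site 3 nt further upstream is used in METTL9-201, METTL9-207 and METTL9-208 (capitals as above):
METTL9 exon 5, later start: cctatgtggaaaaCGGTggcaagtgggaga
METTL9 exon 5, earlier start: cctatgtggaaaaCGTAggtggcaagtggg
The earlier start took 10.1% (9.05 to 11.3) in replicate 1 and 3.04% (2.39 to 3.80) in replicate 2, so the later start, with 1 codon fewer, held most of the counts in both. With values per length the earlier start took 21.2% and 3.13%. METTL9-207 and METTL9-203 moved in opposite directions between the libraries. METTL9-207, an incomplete model, held 302 and 14.1 normalised counts, and METTL9-203, marked for nonsense-mediated decay, held 39.4 and 376. METTL9-203 leaves out exon 2, a choice that took 1.45% (1.02 to 1.98) and 14.4% (13.1 to 15.7) of counts. With values per length the same choice took 3.67% and 30.5%.

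METTL18 (chr1:169792529-169794963, minus strand) modifies a histidine of the large ribosomal subunit protein uL3. With 162 and 114 normalised counts it was among the lowest of the 10 genes. All of its counts lay on protein-coding transcripts, and the 372-codon reference coding sequence, which METTL18-201 and METTL18-202 both carry, held 100% (97.6 to 100) and 94.8% (88.6 to 97.7). The pair differs in its first exon (capitals as above):
METTL18-202 exon 1 to exon 2: agcaagcatccccAGAGctgcttggaaaga
METTL18-201 exon 1 to exon 2: cctctcccccaaaTTAGctgcttggaaaga
METTL18-201 held 118 and 41.3 normalised counts and METTL18-202 held 43.5 and 66.5, so that the order reversed between the libraries. The first exon of METTL18-201 took 73.1% (65.5 to 80.0) of the counts of the pair in replicate 1 and 38.3% (29.6 to 47.9) in replicate 2. C1orf112, on the opposite strand with 632 ± 106 normalised counts, overlaps 91 nt of METTL18-202 and none of METTL18-201.

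METTL15 (chr11:28108248-28527041, plus strand) encodes the enzyme for 4-methylcytidine in mitochondrial small-subunit rRNA, and METTL17 (chr14:20989973-20997035, plus strand) an assembly factor of the same ribosomal subunit. METTL15 held 633 and 553 and METTL17 1250 and 1189 normalised counts. Per length, METTL17 was 5.62-fold above METTL15 in replicate 1 and 5.80-fold in replicate 2, a log2 ratio of 2.51 ± 0.03 (SD, n = 2) and the closest agreement between libraries of the 4 ratios examined. Without division by length the log2 ratio was 1.04. METTL15-204, the reference form of 407 codons, led METTL15 with 60.8% (56.7 to 64.6) and 51.3% (47.2 to 55.4). METTL15-201, with an added exon and 273 codons, held 16.9% and 29.4%.

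METTL17 counts were spread over more transcripts than those of the others, with 25 listed and none above 28.2% of the gene in either library. METTL17-224, marked for nonsense-mediated decay, led in replicate 1 with 353 normalised counts and METTL17-221, of 447 codons, in replicate 2 with 312. The reference form METTL17-201, of 456 codons, held 112 and 70.7 normalised counts, or 8.99% and 5.94%. The transcripts part at the last intron of METTL17-201, of 73 nt, which can be spliced, joined to a start of the last exon 27 nt further in, or kept. Capitals mark the junction, or the first 2 bases of the kept intron:
METTL17 last intron spliced: ccgccggcacggcAGGGatttgtatcgttg
METTL17 last exon, late start: ccgccggcacggcAGCTcctggggagatct
METTL17 last intron kept: ccgccggcacggcagGTatggggggtgtga
Against the spliced form, the late start took 20.3% (17.2 to 23.5) in replicate 1 and 44.1% (40.8 to 47.5) in replicate 2, and the kept intron 39.6% (36.3 to 43.0) and 33.3% (29.9 to 36.9). With values per length the late start took 31.9% and 46.4%, and the kept intron 35.2% and 27.4%. The kept form includes METTL17-202, a coding model of 478 codons with 315 and 169 normalised counts. METTL17-224 starts exon 4 32 nt early, and that start took 41.3% (38.2 to 44.4) and 36.2% (33.4 to 39.1). An opposite-strand lncRNA, ENSG00000258471, with 28.8 ± 5.51 normalised counts, overlaps 596 nt of METTL17 exon.

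METTL25 (chr12:82358528-82479239, plus strand) was the least expressed and most variable of the 10 genes. Its leading transcript METTL25-202, for which no coding sequence is defined, held 82.9 and 33.0 normalised counts, or 70.7% and 61.0%. The reference form METTL25-201, of 603 codons, held 21.2 and 15.0 normalised counts, or 18.1% (11.4 to 26.4) and 27.7% (16.7 to 40.9). Both forms leave the same exon and join different ones after it (capitals as above):
METTL25-201: ttagatgagtccaAGCTgccagaaaaaatt
METTL25-202: ttagatgagtccaAGAAgatcacagtgata
The junction of METTL25-202 took 76.1% (66.3 to 83.6) and 68.8% (54.9 to 81.3), with overlapping intervals in the 2 libraries.

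**Figure D4:**
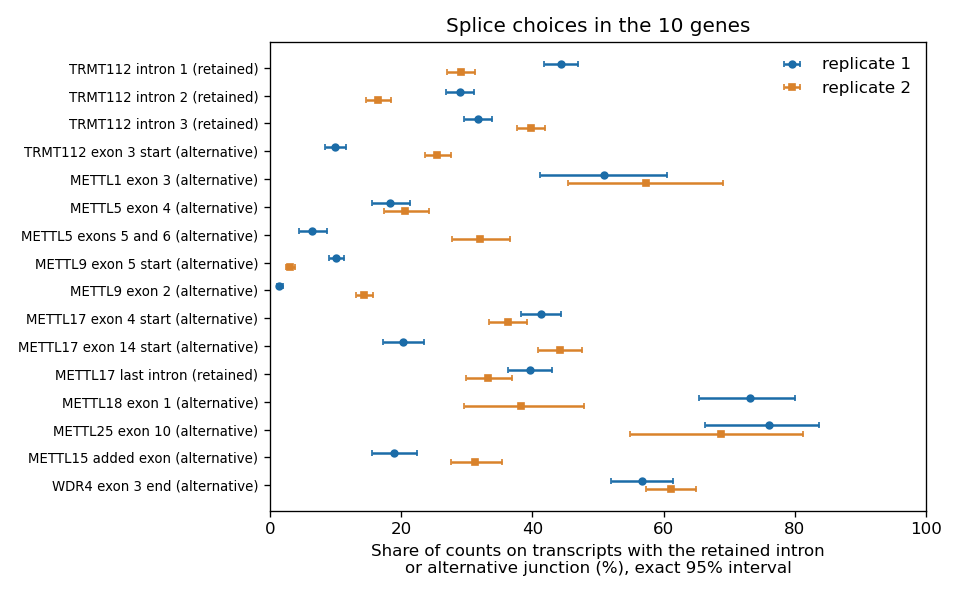
Shares in percent of counts on transcripts with the retained intron or the alternative junction, against those with the other form, for 16 splice choices in replicates 1 (circles) and 2 (squares), with exact 95% intervals for counting error. Counts were not divided by transcript length. The intervals of the 2 libraries overlap for WDR4, METTL1, METTL25, METTL5 exon 4, METTL17 exon 4 and the METTL17 last intron, while those of METTL5 exons 5 and 6 (6.40% and 32.0%) and METTL9 exon 2 (1.45% and 14.4%) lie far apart. Overlap of intervals does not show that the shares are equal.

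Across the 10 genes, both libraries shared the leading transcript for 6, against 81.4% of all genes with several transcripts and a mean of at least 10. It differed for METTL5, TRMT112, METTL17 and METTL18. With values per length 4 genes shared it, since METTL1 and METTL4 then had different leaders in the libraries. No share over all genes stands beside that count, as the 81.4% is for leaders by estimated counts. For 3 genes, WDR4, TRMT112 and METTL25, a transcript of a class other than protein-coding led in both libraries, which held for 8.27% of protein-coding genes. The median share on protein-coding transcripts was 72.2%, beside a median of 91.3% over protein-coding genes. TRMT112 (17.0% ± 10.0), METTL25 (22.9% ± 6.80) and WDR4 (35.6% ± 2.91) had the lowest shares, and METTL18 the highest. The reference coding sequence held over 50% in both libraries in 3 genes, METTL4, METTL15 and METTL18, beside 58.0% of the protein-coding genes compared, and under 25% in both in 4, METTL1, TRMT112, METTL9 and METTL17, beside 19.3%. Of the 59 transcripts averaging 10 or more normalised counts, 23 were over 2-fold apart between the libraries, beside 30.6% of all such transcripts. The reads themselves were not analysed here, so their assignment to these models was not checked.

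**Figure D5:**
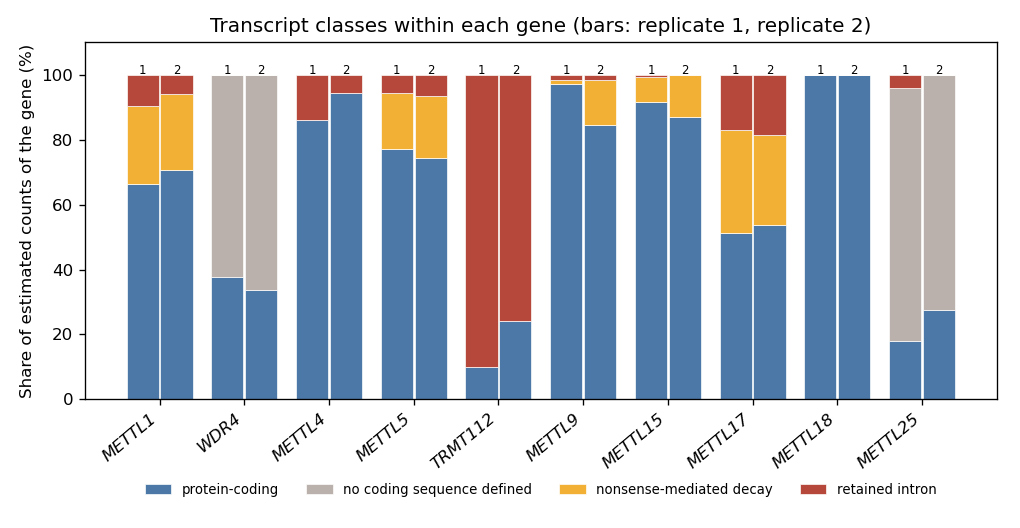
Stacked bars of the share (%) of each gene's estimated counts by transcript class in replicate 1 (left bar) and replicate 2 (right bar). TRMT112 is the only gene with a mostly retained-intron bar (90.1% and 76.0%), and WDR4 and METTL25 are the 2 genes whose bars are mostly transcripts with no defined coding sequence.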

How the data were processed

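Total RNA was depleted of rRNA and sequenced from TruSeq libraries per the labels. The submitters' processing notes name FastQC, STAR 2.7.0d, RSEM 1.3.3 and R 3.6.3, and the study names GRCh38, Ensembl release 104. The deposited tables hold, for each transcript, the estimated count that the authors obtained with RSEM and a deposited normalised signal, the estimated count divided by 0.945 (replicate 1) or 1.08 (replicate 2). Transcript IDs without version were matched to GENCODE release 44 (GRCh38), which matched 202217 of 206696 and 96.9% and 96.8% of the counts. The MANE Select transcript of each of the 10 genes has another version there, so its length and exons may differ from those used in counting. Sums, per-length levels (no effective-length correction), shares and exact Clopper-Pearson intervals were computed in Python 3.11.15 (SciPy 1.17.1). By rule, all 10 genes, transcripts averaging at least 5% of their gene, TRMT112 partners, overlapping genes and same-named pseudogenes could be named. Not every transcript, overlapping gene or pseudogene that met the rule is named here. Genes and lists were chosen with earlier results of these data known. Splice choices, other named transcripts and neighbouring genes were chosen after their values were seen. With 2 libraries of 1 group no test between conditions was run, and the smallest two-sided sign-flip p is 0.5. The METTL8 tables equalled the full tables in all 17 values per library and were not used further. Some values and sequences are not reported here.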

Additional observations from a re-analysis of the deposited data

How the results depend on the processing

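Of 40 alternatives, 36 kept the direction and call or, for counts, stayed within 1.5 times, but 10 of these left out a replicate, which with 2 libraries cannot move a mean by more than 1 SD and so says nothing of stability. When only protein-coding transcripts were summed, the mean log2 ratio of TRMT112 to METTL5 reversed from 1.70 to -0.24 ± 1.21 (SD, n = 2). The order of these genes then differed between the libraries. Between the 2 settings the mean level per length went from 110.1 to 20.9 for TRMT112 and from 34.1 to 22.5 for METTL5. The median protein-coding share of 72.2% became 61.6% with values per length, and the cause was not tested. The 23 transcripts over 2-fold apart became 13 at a mean of at least 50 (of 30), as fewer were compared. They became 38 with no minimum and a pseudocount of 1, 2 choices changed together whose parts were not tested. No share over all transcripts stands beside either of these counts, so they cannot be set against the whole. Without replicate 1 or 2, the log2 ratios ran from 0.99 to 1.21 (WDR4 to METTL1), 1.53 to 1.87 (TRMT112 to METTL5), -0.56 to -0.28 (TRMT112 to its partners) and 2.49 to 2.54 (METTL17 to METTL15), and the median share from 71.7% to 72.6%. Pairs told apart numbered 35 to 39 against 41, but these were not all among the 41. Without length division 34 of 38 were called in the same direction as in the main setting, and with protein-coding transcripts only 32 of 35. In both of these settings METTL9 was called above TRMT112, the reverse order. The single gene over 2-fold changed from METTL25 to TRMT112 with protein-coding transcripts only. Leaving out a library gives no value for those pairs or for counts between libraries. No paired analysis was possible because there is only 1 group. Low totals limit METTL25, METTL1 and METTL18, whose share intervals are wide.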

Other observations

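Of the 10 genes, 6 start within 1000 nt of a protein-coding gene on the opposite strand, which holds for 13.4% of protein-coding genes. WDR4 lies 76 nt from NDUFV3, a subunit gene of respiratory complex I with 2063 ± 29.4 normalised counts (SD, n = 2). METTL4 lies 48 nt from the kinetochore gene NDC80, with 673 ± 129 normalised counts, and METTL15 lies 92 nt from the kinesin gene KIF18A, with 380 ± 131. TRMT112 lies 562 nt from PRDX5, a peroxiredoxin gene with 2234 ± 41.5 normalised counts. METTL1 lies 541 nt from ENSG00000257921, with 8.80 ± 2.92, and METTL25 overlaps the start of CCDC59, with 865 ± 219 normalised counts, by 277 nt.

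There are 16 annotated pseudogenes named after these genes, and 5 of the 16 were above 0. Their estimated counts summed to 13.03 in replicate 1 and 32.3 in replicate 2. METTL5P2 held 5 and 17 and METTL15P1 held 8.03 and 11.6. The other 11 were listed at 0 in both libraries.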
